A study of Mus musculus with 62 samples.

Results

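The 10 circadian clock genes *Arntl*, *Clock*, *Npas2*, *Cry1*, *Per1*, *Per2*, *Per3*, *Nr1d1*, *Nr1d2* and *Dbp* were followed through the liver and 2 fat depots of mice with and without *Fam13a*. They were taken by name from the count table, where each had 1 row among 48795 genes, and every one of the 10 passed the low-count filter in each tissue. The rule that names them uses no measured value.

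The study sequenced RNA of 62 libraries in 16 groups, with 4 libraries in 14 groups and 3 in the other two, the female wild-type (WT) fat groups. Mice were C57BL6, either WT or whole-body *Fam13a* knockout (KO) made from KOMP embryonic stem cells by loss of a loxP-flanked part of the gene. Males were sampled on chow (18% of kcal as fat) and on high-fat diet (HFD, 45% of kcal as fat) in liver, inguinal subcutaneous fat (SAT) and gonadal visceral fat (VAT), and females on HFD in both fat depots. HFD started at 8 weeks of age and lasted 14 weeks, so that these mice were killed at 22 weeks; the age of the sequenced chow mice is not given in the sources used here. All mice were kept on 12-h light and dark phases. The time of day at which tissues were collected is not given in the sources used here, and it cannot be told apart from group in these data. The methods for histology describe an overnight fast before the mice were killed.

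The circadian clock is a feedback loop that runs in nearly every cell and is set by light through the brain and by feeding in peripheral organs such as liver and fat. CLOCK, or its relative NPAS2, pairs with BMAL1, the product of *Arntl*, binds E-box DNA and drives the period genes, *Cry1*, *Nr1d1*, *Nr1d2* and *Dbp*. PER and CRY proteins then inhibit that pair, and the nuclear receptors encoded by *Nr1d1* and *Nr1d2* repress *Arntl* and *Npas2*, so the *Arntl* group and the *Dbp* group peak at different times of day.

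Total counts ranged from 4959783 to 28723319 per library (median 21694089), and 9 of the 620 member values rested on fewer than 10 counts. In 5 male libraries over 30% of counts came from ribosomal RNA (liver chow KO 1 and 4, liver HFD KO 3, VAT HFD KO 2 and VAT HFD WT 1), and 2 chow VAT libraries (KO 1 and WT 2) carried epididymis markers at a mean above 5 log2 CPM. The liver libraries had hepatocyte markers at 11.6 to 12.1 log2 CPM (8 genes averaged), and male fat had adipocyte markers at 9.08 to 11.3. The counts of *Fam13a* cover the whole gene and not only the deleted part. Its group mean was lower in KO in 8 of 8 KO and WT pairs, and in 3 pairs every KO library was below every WT library. Flow cell and sequencing lane were read here from the endings of the library names, an inference from the form of the names. Chow and HFD libraries never shared a sequencing lane so read, so lane and diet cannot be told apart. Library numbers (KO 1, WT 2) were given here in accession order within a group and only name a library. The labels do not say that the libraries of a group are separate animals, and p-values measure the spread between these libraries only.

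On GRCm38, the activator genes lie at chr7:113207465-113314126 (*Arntl*), chr5:76209868-76304792 (*Clock*) and chr1:39193731-39363236 (*Npas2*), in the GENCODE annotation. The inhibitors lie at chr10:85131700-85185064 (*Cry1*), chr11:69095217-69109960 (*Per1*), chr1:91415982-91459324 (*Per2*) and chr4:151003652-151044665 (*Per3*), and the others at chr11:98767932-98775333 (*Nr1d1*), chr14:18204054-18239127 (*Nr1d2*) and chr7:45705088-45710203 (*Dbp*). Counts cover annotated exons of the whole gene. *Nr1d1* overlaps *Thra* and *Dbp* overlaps *Sphk2* on the opposite strand, and *Per3* overlaps *Camta1* on its own strand. The activator genes have partners too: *Gm45355* opposite *Arntl*, *Gm20428* opposite *Npas2*, *Gm3617* on the strand of *Npas2*, and *Ube2n-ps1* and *Gm43658* on the strand of *Clock*. The libraries were stranded, but the strand setting of the deposited counts is not given in the sources used here, so reads of such partners may not be separated.

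The promoter windows show which clock elements lie near the starts of these genes. RefSeq gave windows for 9 of the 10 genes (13 windows of 300 bases around transcript starts, build GRCm38.p6). 4 motifs were searched as letters on both strands, and none of the words contains another. CACGTG, the E-box bound by CLOCK and BMAL1, was found in *Per1* and *Cry1* and in 7.15% of all 32851 windows. CACGTT, a weaker E-box form read as AACGTG on the other strand, was found in *Cry1* and *Nr1d1* and in 4.68% of all windows. TTATGTAA, TTACGTAA and TTATATAA, D-box words read by DBP, were found in *Per3* and in 1.59% of all windows. AGGTCA, the core of the element read by the *Nr1d1* and *Nr1d2* products (TGACCT on the other strand), was found in *Arntl*, *Nr1d2*, *Clock* and *Per1* and in 16.3% of all windows. A gene was counted if any of its windows matched, while the shares are over single windows, so genes with several windows had more chances to match. A match is a run of letters and not a measured binding site. The 5 windows below are those of an activator and 4 of its targets, with matches in capitals and each written 5′ to 3′ on the gene's strand.
Arntl, chr7:113207261-113207560, plus strand: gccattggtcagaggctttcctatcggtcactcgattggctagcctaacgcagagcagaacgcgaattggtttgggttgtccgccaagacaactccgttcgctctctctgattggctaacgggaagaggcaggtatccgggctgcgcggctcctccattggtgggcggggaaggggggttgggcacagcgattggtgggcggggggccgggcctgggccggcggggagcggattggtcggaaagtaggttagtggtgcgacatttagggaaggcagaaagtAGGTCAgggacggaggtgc
Per1, chr11:69098699-69098998, plus strand: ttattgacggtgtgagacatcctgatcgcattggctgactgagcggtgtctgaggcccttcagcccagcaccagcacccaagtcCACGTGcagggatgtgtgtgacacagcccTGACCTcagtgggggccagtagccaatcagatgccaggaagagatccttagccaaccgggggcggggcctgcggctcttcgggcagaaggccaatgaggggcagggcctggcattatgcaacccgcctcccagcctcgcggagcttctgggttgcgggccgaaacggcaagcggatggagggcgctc
Cry1, chr10:85185005-85185304, minus strand: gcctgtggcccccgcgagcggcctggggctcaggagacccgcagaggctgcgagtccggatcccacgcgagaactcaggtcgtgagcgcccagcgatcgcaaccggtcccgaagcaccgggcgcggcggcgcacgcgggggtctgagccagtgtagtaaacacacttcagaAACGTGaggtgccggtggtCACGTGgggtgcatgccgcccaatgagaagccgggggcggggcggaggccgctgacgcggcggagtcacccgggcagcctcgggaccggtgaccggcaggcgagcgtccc
Nr1d1, chr11:98775328-98775627, minus strand: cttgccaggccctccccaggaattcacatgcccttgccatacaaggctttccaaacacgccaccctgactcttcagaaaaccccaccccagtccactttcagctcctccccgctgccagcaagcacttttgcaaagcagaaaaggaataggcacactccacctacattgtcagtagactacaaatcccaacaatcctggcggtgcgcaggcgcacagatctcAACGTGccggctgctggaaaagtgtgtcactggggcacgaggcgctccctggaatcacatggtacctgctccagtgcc
Per3, chr4:151044616-151044915, minus strand: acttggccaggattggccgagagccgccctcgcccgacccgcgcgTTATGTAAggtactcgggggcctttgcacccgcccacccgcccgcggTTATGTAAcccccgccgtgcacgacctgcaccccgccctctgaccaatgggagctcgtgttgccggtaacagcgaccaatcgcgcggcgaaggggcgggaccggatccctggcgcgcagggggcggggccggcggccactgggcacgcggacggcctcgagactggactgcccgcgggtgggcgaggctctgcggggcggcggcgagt

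Per length, the repressor receptors and *Clock* were the most abundant of the 10 genes in male chow WT tissues and *Npas2* the least. In male chow WT liver the order of mean TPM (counts scaled for transcript length and depth, ± SD, n = 4) was *Nr1d2* 31.7 ± 3.99, *Nr1d1* 22.7 ± 4.24, *Clock* 19.4 ± 1.04, *Dbp* 10.01 ± 3.60, *Arntl* 4.58 ± 1.63, *Per1* 4.06 ± 1.94, *Cry1* 2.86 ± 0.535, *Per2* 2.24 ± 0.649, *Per3* 2.20 ± 0.535 and *Npas2* 0.890 ± 0.302. Ranges of neighbours in that order overlapped except between *Nr1d2* and *Nr1d1*, *Clock* and *Dbp*, and *Per3* and *Npas2*. On HFD the liver order was another, with *Dbp* highest at a mean of 44.6 TPM in WT and 40.3 in KO, where *Clock* had 10.5 and 8.24. Chow WT SAT had *Nr1d1* 27.1 ± 5.23, *Nr1d2* 26.2 ± 5.14, *Clock* 26.2 ± 4.31, *Per1* 15.7 ± 5.59, *Arntl* 9.63 ± 1.38, *Per3* 6.95 ± 1.42, *Cry1* 6.93 ± 1.58, *Per2* 4.55 ± 1.22, *Dbp* 4.40 ± 1.82 and *Npas2* 3.35 ± 0.632, and only the neighbours *Arntl* and *Per3* were apart. In VAT the order was *Nr1d1* 50.3 ± 13.3, *Clock* 36.5 ± 5.75, *Nr1d2* 31 ± 7.64, *Per1* 24.3 ± 4.46, *Per3* 17.4 ± 6.88, *Per2* 10.8 ± 2.21, *Arntl* 8.86 ± 2.82, *Cry1* 7.71 ± 1.51, *Dbp* 4.05 ± 1.80 and *Npas2* 2.82 ± 0.930, with every pair of neighbours overlapping. All levels below are CPM (counts scaled by library size after TMM normalisation), compared only within a gene. Ribosomal RNA counts entered the TPM scaling, so TPM was lower in libraries rich in them. Its spread within groups and its differences between groups can carry this. In HFD liver *Clock* had a mean of 53.1 CPM in WT and 52.7 in KO, where its TPM was 10.5 and 8.24.

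**Figure D1:**
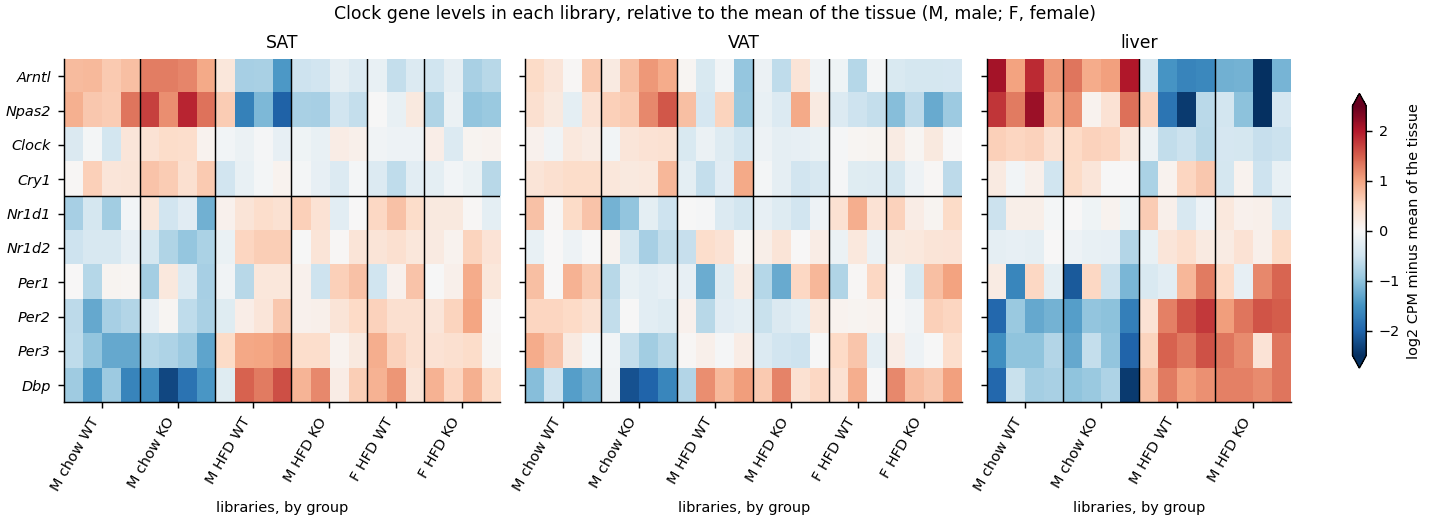
Heat map of the 10 clock genes (rows) in the 62 libraries (columns, by tissue, sex, diet and genotype), coloured by log2 CPM relative to the gene's mean over the libraries of the same tissue. In liver, *Arntl* of the 8 HFD libraries lies between 0.674 and 3.37 CPM, under all 8 chow libraries (8.83 to 19.7 CPM), and *Dbp* runs the other way.

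The diet comparison asked how male tissues on HFD differed from those on chow, with KO and WT weighted equally. In liver, edgeR's quasi-likelihood test called 8 of 10 clock genes at an adjusted p under 0.1, 5 higher and 3 lower on HFD, against 40.7% of all genes tested. The same test called 8 of 10 in SAT (5 higher, 3 lower; 59.7% of all genes) and 6 of 10 in VAT (2 higher, 4 lower; 47.4% of all genes). The median log2 fold change of the 10 genes was 0.30 in liver, 0.54 in SAT and -0.29 in VAT, where the median over all genes was -0.00, -0.02 and -0.05. *Arntl*, *Dbp* and *Nr1d2* were called in the same direction in all 3 tissues, which is 3 of 10 genes against 7.40% of the 13788 genes tested in all 3. The sign was shared by 6 of 10 genes, against 36.7% of all genes.

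*Arntl*, which encodes the activator BMAL1, was lower on HFD in every tissue. Liver *Arntl* stood at 19.7, 9.29, 16.9 and 9.80 CPM in chow WT and 11.7, 8.83, 9.36 and 18.6 CPM in chow KO, against 3.37, 1.60, 1.40 and 1.44 CPM in HFD WT and 1.95, 1.98, 0.674 and 1.99 CPM in HFD KO. Every HFD library lay below every chow library; the lowest, HFD KO 3, rested on 1 count in a library rich in ribosomal RNA. The difference was log2 fold change -2.73 ± 0.23 (SE), adjusted p = 1.64e-07. In SAT, chow WT had 30.8, 31.1, 27.9 and 30.1 CPM, chow KO 43.1, 43, 41.4 and 34.3, HFD WT 21.5, 9.95, 10.1 and 6.52 and HFD KO 12.3, 12.7, 15.1 and 14. Diets again did not overlap, and chow KO was above chow WT in all libraries. The SAT change was log2 fold change -1.45 ± 0.17 (SE), adjusted p = 5.54e-06. VAT values were 25.1, 21.9, 18.2 and 28.2 CPM in chow WT, 20.8, 30.3, 38 and 33.9 in chow KO, 18.5, 13.6, 17.1 and 9.14 in HFD WT and 16.2, 11.5, 22.4 and 16.9 in HFD KO. There the diets overlapped, with HFD KO 3 above several chow libraries, and the change was log2 fold change -0.77 ± 0.16 (SE), adjusted p = 8.91e-04.

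*Npas2*, which can replace *Clock* as the partner of BMAL1, was the least abundant member and moved with *Arntl* in liver and SAT. SAT libraries ran 5.55 to 13.4 CPM (median 8.54) on chow and 0.781 to 5.51 CPM (median 1.95) on HFD. These ranges did not overlap, and the change was log2 fold change -1.94 ± 0.30 (SE), adjusted p = 5.63e-05. In liver the range was 0.552 to 2.55 CPM (median 1.32) on chow and 0 to 0.804 CPM (median 0.249) on HFD, where HFD KO 3 had 0 counts. The liver change was log2 fold change -2.02 ± 0.43 (SE), adjusted p = 0.00133. VAT did not pass, at log2 fold change -0.45 ± 0.25 (SE), adjusted p = 0.157, but it passed without HFD KO 3 or HFD WT 1 (-0.62 to -0.33 over all libraries left out in turn). *Clock*, which encodes the usual partner of BMAL1, was lower on HFD in liver, at 90.5 to 112 CPM (median 107) on chow against 45.5 to 67.3 CPM (median 51.1) on HFD. The ranges were apart, with log2 fold change -0.98 ± 0.08 (SE), adjusted p = 9.87e-08. VAT *Clock* ran 156 to 215 CPM (median 194) on chow and 117 to 150.4 CPM (median 142) on HFD, also without overlap (log2 fold change -0.45 ± 0.07 (SE), adjusted p = 9.88e-05). SAT *Clock* did not pass (log2 fold change -0.16 ± 0.10 (SE), adjusted p = 0.177), and its chow range of 118 to 224 CPM (median 187) held the HFD range. It passed without chow KO 4, chow WT 1 or chow WT 3 (-0.23 to -0.11).

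*Dbp*, a PAR bZIP factor that is a direct output of CLOCK and BMAL1, was higher on HFD in every tissue. Liver held 5.93, 15.8, 12.9 and 13.4 CPM in chow WT and 11.7, 12.3, 13.6 and 4.42 in chow KO, against 39.7, 57.8, 47.6 and 51.4 in HFD WT and 56.2, 56.2, 53.3 and 59.6 in HFD KO. All HFD libraries were above all chow libraries, and the change was log2 fold change 2.22 ± 0.19 (SE), adjusted p = 1.54e-07. SAT had 6.46, 4.47, 6.43 and 3.79 CPM in chow WT, 4.09, 2.41, 3.28 and 4.37 in chow KO, 9.74, 34, 30.2 and 37.2 in HFD WT and 21.9, 28, 13.8 and 18.5 in HFD KO. Here too the diets were apart, with log2 fold change 2.47 ± 0.24 (SE), adjusted p = 1.62e-06. In VAT, *Dbp* stood at 3.99, 5.88, 3.23 and 3.64 CPM in chow WT, 8.05, 1.80, 2.06 and 2.69 in chow KO, 5.09, 19.2, 15.1 and 17.6 in HFD WT and 13.4, 20.1, 11.1 and 12.3 in HFD KO. Chow KO 1, a library with epididymis markers, was above HFD WT 1, and no other pair overlapped except chow WT 2, the other such library, with HFD WT 1. The VAT change was log2 fold change 1.85 ± 0.30 (SE), adjusted p = 8.46e-05, and it lay between 1.74 and 2.23 whichever library was left out.

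**Figure D2:**
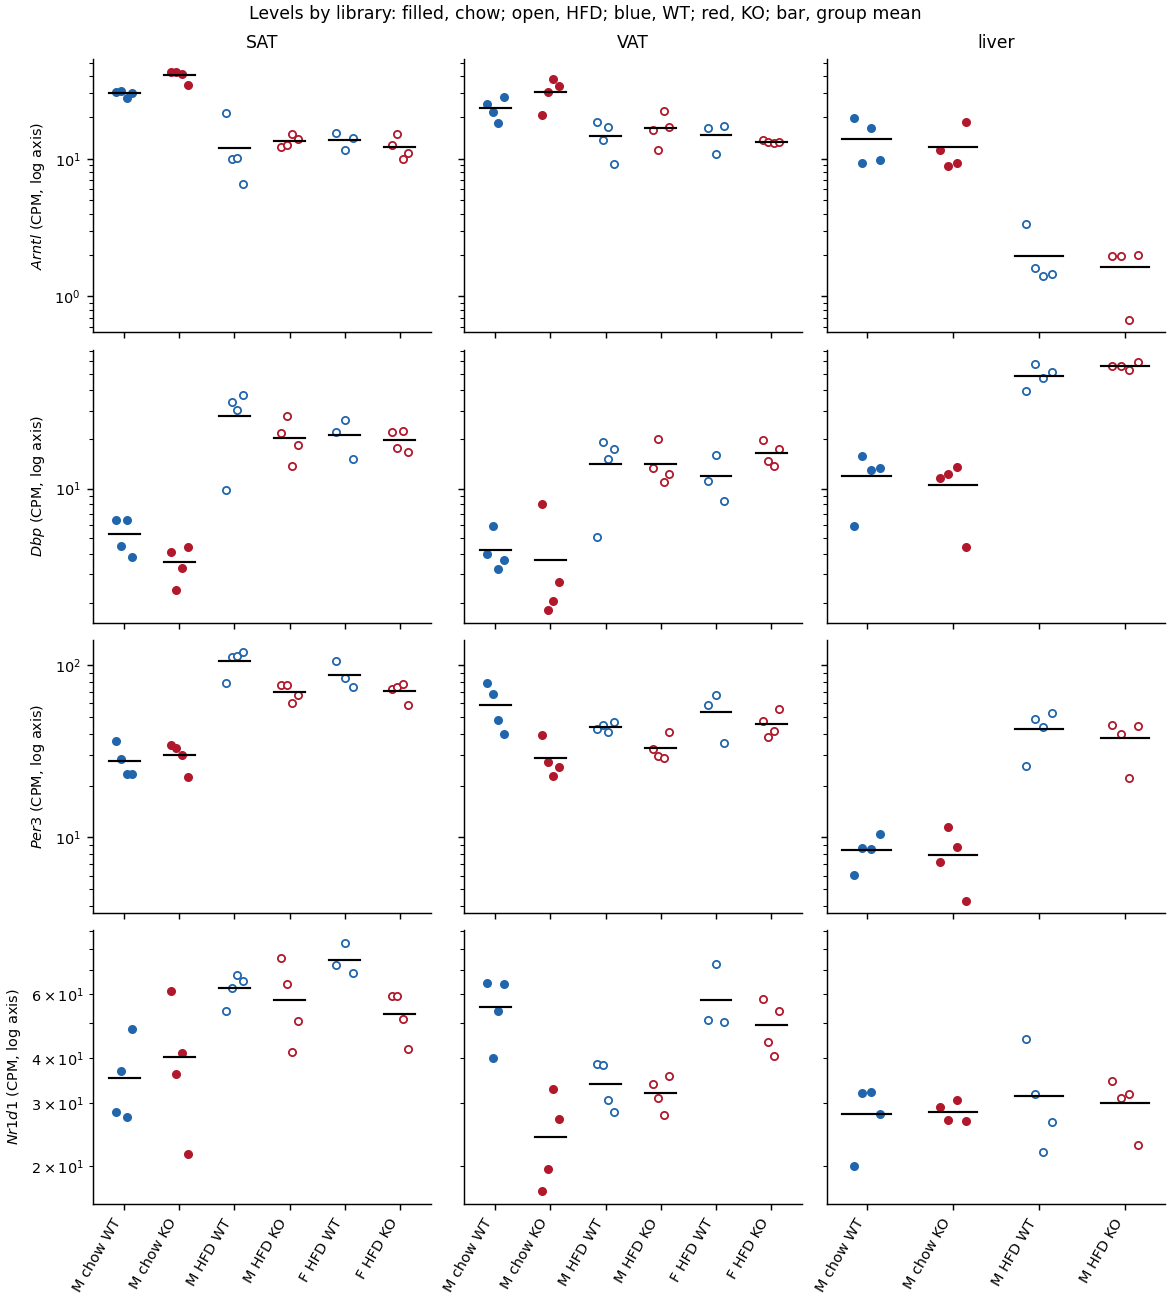
CPM of *Arntl*, *Dbp*, *Per3* and *Nr1d1* (log axis) in each library, by group (tissue, sex, diet and genotype); each point is 1 library, filled on chow and open on HFD, blue in WT and red in KO, and bars are group means. *Arntl* is lower and *Dbp* higher on HFD in the 3 tissues, *Per3* is higher on HFD in liver and SAT, and *Nr1d1* of chow VAT is lower in KO (17.1 to 32.8 CPM) than in WT (39.8 to 64.3 CPM).

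The period genes encode the inhibitory PER proteins, and here the tissues parted. *Per3* of liver had 6.02, 8.68, 8.62 and 10.5 CPM in chow WT, 7.20, 11.5, 8.77 and 4.29 in chow KO, 25.8, 48.7, 43.8 and 52.6 in HFD WT and 44.7, 39.7, 22.3 and 44.4 in HFD KO. Every HFD library was above every chow library, with log2 fold change 2.30 ± 0.18 (SE), adjusted p = 1.07e-07. SAT *Per3* had 36.1, 28.6, 23.2 and 23.3 CPM in chow WT, 34.6, 33, 30.1 and 22.5 in chow KO, 78.7, 111, 112 and 119 in HFD WT and 76.3, 76.6, 60.3 and 66.9 in HFD KO. The diets were apart there as well (log2 fold change 1.57 ± 0.12 (SE), adjusted p = 2.55e-07). VAT *Per3* had 79, 68, 48.2 and 39.9 CPM in chow WT, 39.3, 27.5, 22.6 and 25.6 in chow KO, 42.5, 45, 40.8 and 46.8 in HFD WT and 32.7, 29.8, 28.8 and 41.1 in HFD KO. In this depot HFD libraries overlapped those of both chow genotypes, and the diet test did not pass (log2 fold change -0.11 ± 0.16 (SE), adjusted p = 0.605; 0.02 without the libraries with epididymis markers).

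*Per2* followed the same split. Its liver values were 3.27 to 6.77 CPM (median 5.49) on chow and 16.8 to 44.6 CPM (median 35.2) on HFD, apart in all libraries (log2 fold change 2.60 ± 0.19 (SE), adjusted p = 5.48e-08). In SAT they were 8.12 to 20.5 CPM (median 12.2) and 16 to 31.6 CPM (median 23.4), with some overlap (log2 fold change 0.88 ± 0.16 (SE), adjusted p = 2.14e-04). In VAT the order turned, from 10.4 to 23.4 CPM (median 18.4) on chow to 9.80 to 19.2 CPM (median 13.2) on HFD (log2 fold change -0.33 ± 0.14 (SE), adjusted p = 0.0616), a call lost when any of 6 libraries was left out (-0.43 to -0.26). *Per1*, which responds quickly to light and hormone signals, was higher on HFD in liver (log2 fold change 0.92 ± 0.35 (SE), adjusted p = 0.0496), a call lost without liver HFD KO 4 or HFD WT 4 (0.71 to 1.21 over all libraries left out in turn). It did not pass in SAT (log2 fold change 0.39 ± 0.23 (SE), adjusted p = 0.159; it passed without chow KO 2, HFD KO 2 or HFD WT 2, over 0.29 to 0.51) or VAT (log2 fold change -0.24 ± 0.29 (SE), adjusted p = 0.537). *Cry1*, a cryptochrome that inhibits the activator pair, was lower on HFD in SAT (log2 fold change -0.62 ± 0.11 (SE), adjusted p = 2.09e-04) and VAT (log2 fold change -0.52 ± 0.19 (SE), adjusted p = 0.0315), and liver gave log2 fold change -0.05 ± 0.18 (SE), adjusted p = 0.887, with ranges of 2.76 to 5.46 CPM (median 4.12) on chow and 2.22 to 6.26 CPM (median 3.79) on HFD.

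Of the repressor receptors, *Nr1d2* (REV-ERB beta) was higher on HFD in SAT, from 38.7 to 65.6 CPM (median 54.4) on chow to 68 to 116 CPM (median 94.9) on HFD. These ranges were apart, with log2 fold change 0.85 ± 0.11 (SE), adjusted p = 9.85e-06. It was also higher in liver (log2 fold change 0.48 ± 0.10 (SE), adjusted p = 7.34e-04) and VAT (log2 fold change 0.38 ± 0.13 (SE), adjusted p = 0.0266), where the ranges overlapped. *Nr1d1* (REV-ERB alpha), which overlaps *Thra* on the other strand, was higher on HFD in SAT only among the 3 tests: log2 fold change 0.69 ± 0.17 (SE), adjusted p = 0.00307. It gave log2 fold change 0.12 ± 0.14 (SE), adjusted p = 0.545 in liver and log2 fold change -0.15 ± 0.14 (SE), adjusted p = 0.421 in VAT.

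**Figure D3:**
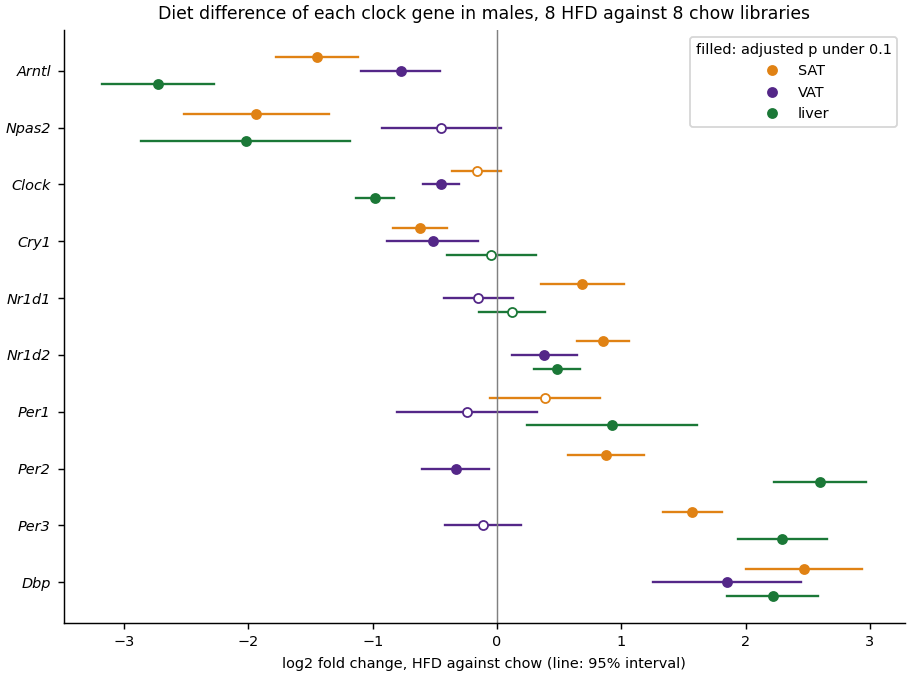
Log2 fold change, HFD against chow in males, of each clock gene in liver, SAT and VAT, with 95% intervals; filled points passed an adjusted p of 0.1. *Arntl* lies left and *Dbp* right of 0 in the 3 tissues, while *Per2* runs from 2.60 in liver to 0.88 in SAT and -0.33 in VAT.

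Other features of the libraries moved with diet. Macrophage markers of VAT ran from 4.83 to 6.40 log2 CPM on chow and 7.07 to 8.50 on HFD, and 8 of 8 were called higher. The mean of these markers (macrophage score) did not overlap between diets. A fit with both can therefore hardly separate them, and it cannot decide what a loss of calls means. With the macrophage score as a covariate, 0 of 10 clock genes were called in VAT, and the signs of *Arntl*, *Clock* (log2 fold change -0.68) and *Dbp* (2.41) were those without it. The value of *Cry1* turned positive (0.10), that of *Nr1d2* came to 0.038, and *Nr1d1* (0.13) and *Per3* (0.71), not called before, turned positive as well. Adipocyte markers of VAT were called lower in 7 of 8 and higher in 1, and epididymis markers lower in 6 of 6 tested (median log2 fold change -10.9). Hepatocyte markers were called in 8 of 8 in each fat depot, 7 higher and 1 lower on HFD, with a median log2 fold change of 3.96 in SAT and 3.02 in VAT. SAT adipocyte markers were higher in 7 of 8 and macrophage markers in 4 of 8. In SAT, lymphocyte markers ran from -0.58 to 6.08 on chow and -0.35 to 4.61 on HFD and 8 of 8 were called lower, and muscle markers ran from 2.59 to 10.6 and from 0.45 to 7.63, with 5 of 8 lower. With the lymphocyte score as a covariate, 9 of 10 clock genes were called in SAT. The share of all genes called was not taken for the fits with a covariate. In liver, hepatocyte markers stayed within 11.6 to 12.1 log2 CPM, with 2 of 8 called higher and 3 lower. Fewer cells of a type and less RNA per cell cannot be told apart in such bulk samples.

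In each tissue the male HFD WT library sequenced on another lane or flow cell than the other 3 of its group, WT 1, had the highest *Arntl* and the lowest *Dbp* of that group. In SAT, it had 21.5 CPM of *Arntl* where the other 3 had at most 10.1, and 9.74 CPM of *Dbp* where the others had at least 30.2. Male HFD KO 1 of SAT, also on another flow cell than its group, went the other way, with the lowest *Arntl* (12.3 CPM) and the second highest *Dbp* (21.9 CPM) of its 4. Of the female HFD WT libraries on another lane than the rest of their group, VAT WT 1 was the middle of 3 in *Arntl* (16.7 CPM) and *Dbp* (11.2 CPM), and SAT WT 3 was the middle in *Arntl* (14.1 CPM) and the lowest in *Dbp* (15.1 CPM). The part of lane in these values was not tested. Over all libraries left out in turn, SAT *Arntl* changed by -1.69 to -1.35 and SAT *Dbp* by 2.36 to 2.60. Leaving out the libraries over 30% ribosomal RNA gave 7 called genes in liver and 6 in VAT, and leaving out those with epididymis markers gave 7 in VAT.

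The size of the diet difference was then compared between tissues in 1 fit of the 48 male libraries, a comparison added after the values had been seen. This fit took libraries of different tissues as independent, though they may come from the same mice. Tissues of a diet lay largely on separate lanes, so lane and tissue cannot be told apart in these differences. VAT and SAT differed in 6 of 10 clock genes (36.9% of all genes), VAT and liver in 6 (33.6%) and SAT and liver in 5 (27.7%). *Per2* differed in each pair: the HFD change was -1.19 ± 0.24 (SE, log2; adjusted p = 2.99e-04) in VAT minus SAT, -2.98 ± 0.25 (SE, log2; adjusted p = 6.14e-11) in VAT minus liver and -1.79 ± 0.25 (SE, log2; adjusted p = 2.70e-06) in SAT minus liver. *Per3* also differed in each, by -1.66 ± 0.25 (SE, log2; adjusted p = 5.22e-06) in VAT minus SAT, -2.44 ± 0.26 (SE, log2; adjusted p = 6.58e-09) in VAT minus liver and -0.78 ± 0.26 (SE, log2; adjusted p = 0.0257) in SAT minus liver. The fall of *Arntl* was smaller in fat: by 1.91 ± 0.30 (SE, log2; adjusted p = 6.93e-06) in VAT minus liver, 1.22 ± 0.30 (SE, log2; adjusted p = 0.00309) in SAT minus liver and 0.69 ± 0.28 (SE, log2; adjusted p = 0.0601) in VAT minus SAT. *Nr1d2* was called in VAT minus SAT, a call lost without any of 25 of the 48 libraries (-0.49 to -0.28), and *Cry1* in SAT minus liver, lost without any of 6 (-0.73 to -0.53). *Dbp* was called in none of the 3, and its difference between VAT and SAT was -0.62 ± 0.40 (SE, log2; adjusted p = 0.252) with a 95% interval from -1.41 to 0.16. Its interval was -1.19 to 0.35 for VAT minus liver and -0.56 to 0.96 for SAT minus liver.

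The diet change was also fitted within each genotype, since VAT genotypes differed on chow. *Nr1d1* in VAT had 64.3, 39.8, 54 and 63.9 CPM in chow WT, 17.1, 19.7, 32.8 and 27.1 in chow KO, 38.5, 38.1, 30.5 and 28.4 in HFD WT and 33.8, 31, 27.7 and 35.6 in HFD KO. Chow WT stood above the other 3 male groups in all libraries, and those 3 overlapped. It was lower on HFD in WT (log2 fold change -0.72 ± 0.20 (SE), adjusted p = 0.0117) and gave log2 fold change 0.41 ± 0.20 (SE), adjusted p = 0.138 in KO. The difference between these, the genotype by diet interaction, was log2 fold change 1.13 ± 0.28 (SE), adjusted p = 0.0884, and it was the 1 member of 10 called (2.39% of all genes). The call was lost when any of 18 of the 23 VAT libraries was left out, with values of 0.99 to 1.31. *Per2* of VAT likewise fell on HFD in WT (log2 fold change -0.76 ± 0.19 (SE), adjusted p = 0.00694) and gave log2 fold change 0.09 ± 0.19 (SE), adjusted p = 0.750 in KO. Its interaction did not pass (log2 fold change 0.85 ± 0.27 (SE), adjusted p = 0.143). Interactions called 0 of 10 in SAT by edgeR (1.77% of all genes; 1 gene at an unadjusted p under 0.05, 1 called by DESeq2 and 0 by limma-voom) and 0 of 10 in liver (0% of all genes; 0 at an unadjusted p under 0.05, 0 by DESeq2 and 0 by limma-voom).

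The genotype comparison asked which genes differ without *Fam13a*. KO against WT called 0 of 10 by edgeR in male SAT and VAT together (3.97% of all genes), where 4 genes had an unadjusted p under 0.05, DESeq2 called 2 and limma-voom 0. Over all SAT groups it called 0 (4.33% of all genes; 3 at an unadjusted p under 0.05, 0 by DESeq2, 0 by limma-voom), and over all VAT groups 0 (0.00527%; 3 unadjusted, 1 by DESeq2, 0 by limma-voom). Liver gave 0 by edgeR (0%; 0 unadjusted, 0 by DESeq2, 0 by limma-voom). Among the 10 genes, log2 fold changes spanned -0.39 to 0.24 in SAT, -0.57 to 0.19 in VAT and -0.53 to 0.06 in liver. The 4 genes at an unadjusted p under 0.05 in male fat were *Per3* (log2 fold change -0.56 ± 0.19 (SE), adjusted p = 0.121), *Clock* (log2 fold change 0.21 ± 0.07 (SE), adjusted p = 0.118), *Arntl* (log2 fold change 0.31 ± 0.14 (SE), adjusted p = 0.242) and *Nr1d2* (log2 fold change -0.22 ± 0.10 (SE), adjusted p = 0.253). The fit of male SAT and VAT together took libraries of the 2 depots as independent, though they may come from the same mice. Its p-values may therefore be too small.

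Within single groups, calls between genotypes came on chow fat. In male chow VAT edgeR called 2 of 10, both lower in KO, against 0.290% of all genes. These were *Nr1d1*, whose values are given above (log2 fold change -1.21 ± 0.20 (SE), adjusted p = 0.0271), and *Per3* (log2 fold change -1.03 ± 0.22 (SE), adjusted p = 0.0842). Libraries of both genes were apart between genotypes. The *Per3* call was lost without any of 12 libraries (-1.22 to -0.85) and the *Nr1d1* call was kept (-1.39 to -1.07). *Per2* (log2 fold change -0.79 ± 0.19 (SE), adjusted p = 0.131) and *Per1* (log2 fold change -0.94 ± 0.41 (SE), adjusted p = 0.335) had every KO library below every WT library without passing. *Npas2* had every KO library above, at log2 fold change 0.84 ± 0.35 (SE), adjusted p = 0.310. The share of all genes with no overlap between genotypes was not taken, so these separations stand without it.

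In male chow SAT, 2 of 10 were called against 31.3% of all genes. *Clock* stood at 128, 158, 118 and 201 CPM in WT and 209.9, 224, 220.1 and 173 in KO, which overlapped in WT 4 and KO 4. It was higher in KO (log2 fold change 0.45 ± 0.14 (SE), adjusted p = 0.0347), a call lost without chow WT 3 (0.38 to 0.62 over all libraries). *Nr1d2*, at 53.1, 57.4, 57.7 and 65.6 CPM in WT and 55.7, 45.1, 38.7 and 43.9 in KO, was lower in KO (log2 fold change -0.35 ± 0.15 (SE), adjusted p = 0.0968), and this call was lost without any of 20 of 23 libraries. *Arntl*, apart between genotypes, had log2 fold change 0.43 ± 0.23 (SE), adjusted p = 0.174, and passed without chow KO 4 or HFD WT 1. *Per2*, not called in the main fit, passed without any of 4 libraries (0.35 to 0.65 over all libraries left out in turn). The count of called genes was 5 without HFD WT 1 and 0 without chow WT 3, and it lay between these in the other fits. Lymphocyte markers ran from 4.27 to 6.08 log2 CPM in WT and from -0.58 to 5.70 in KO (0 of 8 called, median log2 fold change -2.08), adipocyte markers were called higher in 8 of 8, and muscle markers in 4 of 8. With the lymphocyte score as a covariate 0 of 10 clock genes were called, and the share of all genes called was not taken for that fit.

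On HFD edgeR called 0 of 10 between genotypes in each case: male SAT (0% of all genes), male VAT (0%), female SAT (0.0109%) and female VAT (0.00527%). At an unadjusted p under 0.05 there was 1 gene in male SAT (*Per3*, log2 fold change -0.59 ± 0.16 (SE), adjusted p = 0.311) and 0 in the others, and DESeq2 and limma-voom called 0 in all of them. In male liver edgeR called 0 on chow (0.00691% of all genes) and 0 on HFD (0.0622%), with 0 at an unadjusted p under 0.05 and 0 by DESeq2 and limma-voom in both.

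Females were sampled on HFD only, and were compared with HFD males. In neither fat depot did HFD females and HFD males share a sequencing lane, so lane and sex cannot be told apart. SAT gave 0 of 10 by edgeR (19.8% of all genes; 0 at an unadjusted p under 0.05, 0 by DESeq2, 0 by limma-voom), with log2 fold changes from -0.22 to 0.35, and 2 genes were called without male HFD WT 1. Female SAT *Arntl* was 15.5, 11.6 and 14.1 CPM in WT and 12.6, 15.2, 10.01 and 10.9 in KO, and *Dbp* was 22.3, 26.3 and 15.1 in WT and 22.3, 17.6, 22.4 and 16.7 in KO. These lay within the span of the HFD males. VAT called 5 of 10 (32.1% of all genes). *Clock* (log2 fold change 0.34 ± 0.08 (SE), adjusted p = 0.00384), *Nr1d1* (log2 fold change 0.70 ± 0.15 (SE), adjusted p = 0.00175), *Per2* (log2 fold change 0.41 ± 0.14 (SE), adjusted p = 0.0397) and *Per3* (log2 fold change 0.38 ± 0.16 (SE), adjusted p = 0.0940) were higher in females and *Npas2* lower (log2 fold change -0.94 ± 0.26 (SE), adjusted p = 0.0128). The *Per3* call was lost without any of 15 of the 23 libraries (0.27 to 0.49). For *Nr1d1* the female values of 51, 72.9 and 50.2 CPM in WT and 58.2, 44.4, 40.6 and 53.9 in KO were all above the male ones. Macrophage markers, at 5.15 to 6.32 log2 CPM in female VAT and 7.07 to 8.50 in male VAT, were lower in 8 of 8, and with their score as a covariate 1 of 10 clock genes was called and *Per3* stood at -0.31. The score did not overlap between the sexes, so this fit can hardly separate it from sex.

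A balance between sets of the clock genes was taken per library. It was the mean log2 CPM of *Nr1d1*, *Nr1d2*, *Per1*, *Per2*, *Per3* and *Dbp* minus that of *Arntl*, *Clock*, *Npas2* and *Cry1*. *Cry1* was counted beside *Arntl* although it encodes an inhibitor, and its correlation with *Arntl* within groups was weak and negative (r = -0.25 over all libraries). Male liver ran from -0.22 to 1.19 on chow and from 2.54 to 4.45 on HFD. SAT ran from -0.75 to 0.15 on chow and from 0.94 to 2.74 on HFD, and VAT from -0.88 to 0.67 and from 0.42 to 1.19. Liver and SAT were apart between diets and VAT overlapped. In chow VAT the mean was 0.58 ± 0.15 (SD, n = 4) in WT and -0.54 ± 0.40 in KO, and in chow SAT -0.08 ± 0.23 in WT and -0.62 ± 0.15 in KO. Female HFD means were 1.77 in SAT WT, 1.83 in SAT KO, 1.16 in VAT WT and 1.47 in VAT KO. No test was made of this balance, since its genes are the members themselves.

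**Figure D4:**
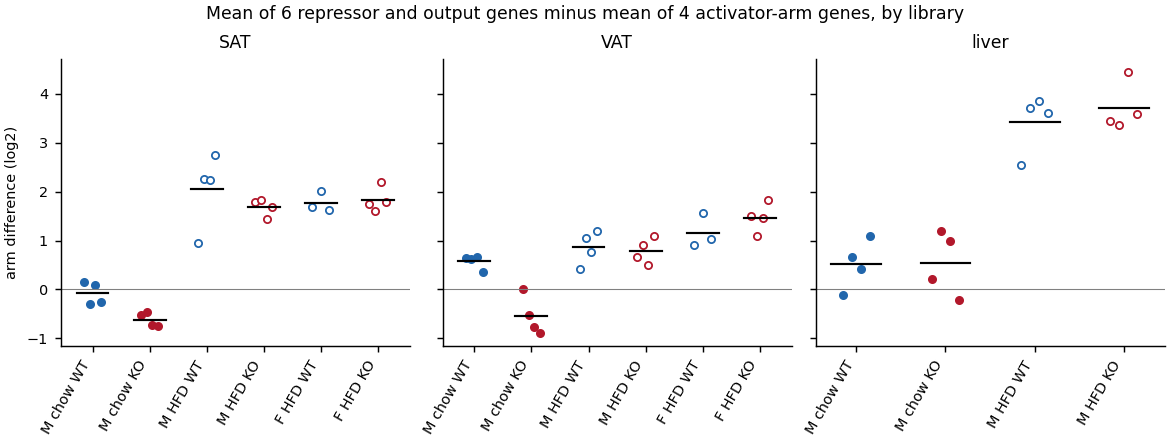
Mean log2 CPM of 6 genes (*Nr1d1*, *Nr1d2*, *Per1*, *Per2*, *Per3* and *Dbp*) minus that of 4 genes (*Arntl*, *Clock*, *Npas2* and the inhibitor *Cry1*), per library (points) and group (bars are means). Male liver on HFD lies at 2.54 to 4.45 against -0.22 to 1.19 on chow, and chow VAT KO lies below chow VAT WT.

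The 23 other clock genes, a list of further repressors, output factors and period regulators, were called on HFD in 16 of 22 tested in liver (13 higher, 3 lower; 40.7% of all genes), 12 of 23 in SAT (10 higher, 2 lower; 59.7%) and 12 of 23 in VAT (5 higher, 7 lower; 47.4%). The share in both fat depots was near that of all genes. Their median log2 fold change was 0.65, 0.14 and -0.07. In liver, the PAR bZIP factor *Tef* rose (log2 fold change 1.25, adjusted p = 2.51e-07), as did the repressor *Bhlhe40* (log2 fold change 1.80, adjusted p = 4.52e-07), the deubiquitinase *Usp2* (log2 fold change 3.32, adjusted p = 4.60e-07) and the cell-cycle kinase *Wee1* (log2 fold change 2.94, adjusted p = 5.43e-07). *Tef* (log2 fold change 0.95, adjusted p = 7.19e-06) and *Bhlhe40* (log2 fold change 0.82, adjusted p = 4.25e-04) rose in SAT too, with the cryptochrome *Cry2* (log2 fold change 0.74, adjusted p = 5.85e-05) and *Hlf* (log2 fold change 0.98, adjusted p = 3.19e-04). Between genotypes in male chow SAT 13 of 23 passed (11 higher and 2 lower in KO; 31.3% of all genes), including *Cry2* (log2 fold change 0.77, adjusted p = 0.00687) and *Wee1* (log2 fold change -0.80, adjusted p = 0.0275), and in male chow VAT edgeR called 0 of 23 (0.290%).

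Within groups, libraries that were high in *Arntl* were high in *Npas2* and low in *Dbp*. For this, log2 CPM was taken relative to the group mean in 23 SAT, 23 VAT and 16 liver libraries, and *Arntl* was set against the other 9 genes in each tissue (27 relations, permutation test within groups, two-sided, adjusted over the 27). *Arntl* and *Npas2* had Pearson's r = 0.89 (adjusted p = 0.00567, 0.63 without the 2 farthest libraries, 0.67 within group and lane) and Spearman's rho = 0.66 (adjusted p = 0.0252) in SAT, Pearson's r = 0.80 (adjusted p = 0.00283, 0.73 without the 2 farthest libraries, 0.77 within group and lane) and Spearman's rho = 0.80 (adjusted p = 0.00837) in VAT and Pearson's r = 0.86 (adjusted p = 0.00567, 0.74 without the 2 farthest libraries, 0.81 within group and lane) and Spearman's rho = 0.78 (adjusted p = 0.0139) in liver. All 3 relations kept their sign without the 2 farthest libraries. *Arntl* and *Dbp* had Pearson's r = -0.78 (adjusted p = 0.0112, -0.51 without the 2 farthest libraries, -0.45 within group and lane) and Spearman's rho = -0.63 (adjusted p = 0.0252) in SAT, Pearson's r = -0.67 (adjusted p = 0.0275, -0.56 without the 2 farthest libraries, -0.63 within group and lane) and Spearman's rho = -0.64 (adjusted p = 0.0299) in VAT and Pearson's r = -0.58 (adjusted p = 0.0368, -0.73 without the 2 farthest libraries, -0.56 within group and lane) and Spearman's rho = -0.51 (adjusted p = 0.157) in liver, where the rank test did not pass. *Arntl* and *Per2* were related in liver, with Pearson's r = -0.80 (adjusted p = 0.00162, -0.82 without the 2 farthest libraries, -0.73 within group and lane) and Spearman's rho = -0.81 (adjusted p = 0.00378). In all, 7 of 27 relations passed by Pearson's r and 6 by Spearman's rho. Without the HFD WT group of SAT, 4 passed, and the SAT relation of *Arntl* with *Npas2* was 0.63 and with *Dbp* -0.47, neither of them among the 4.

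**Figure D5:**
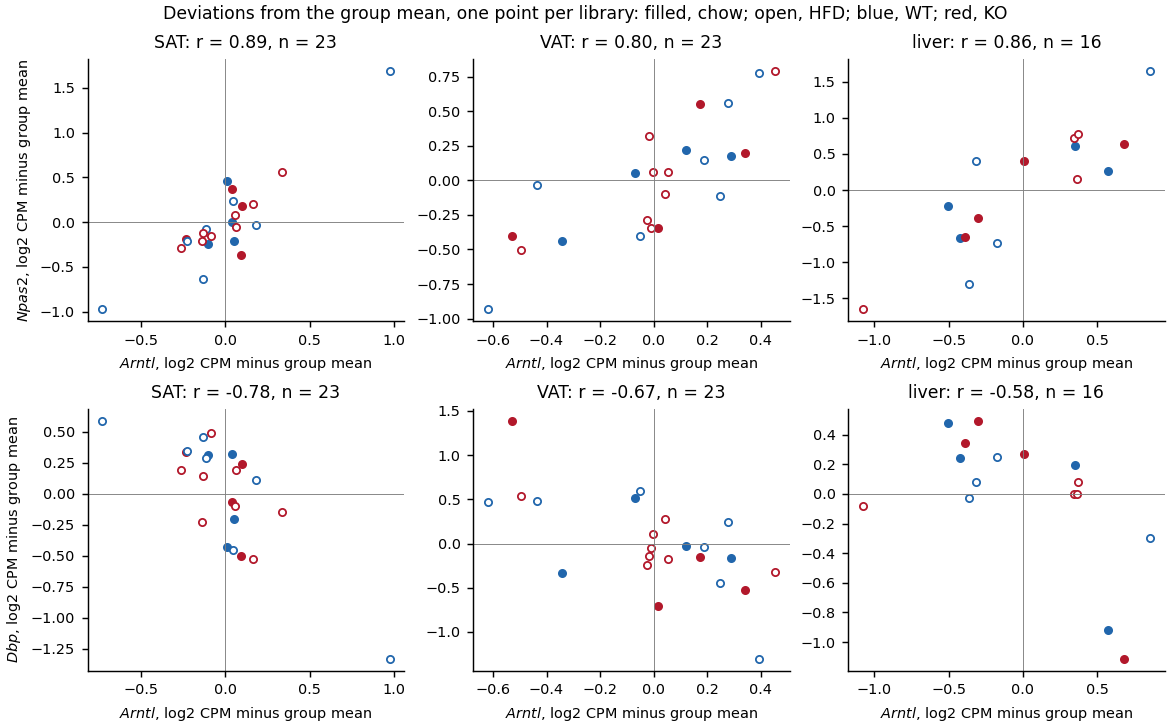
Log2 CPM of *Npas2* (top) and *Dbp* (bottom) against *Arntl* (horizontal axes), each relative to its group mean, with 1 point per library and 1 column of panels per tissue. *Npas2* rises with *Arntl* in the 3 tissues (r = 0.89, 0.80 and 0.86 in SAT, VAT and liver) and *Dbp* falls.

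Over all 62 libraries, with each gene taken relative to its group mean, the 13787 other genes tested in all tissues were ordered by their correlation with *Arntl*, as a description. *Npas2* came closest (r = 0.85), followed by *Rnf144a* (0.68), *Gm43052* (0.68), *Mpzl1* (0.67) and *Mgat4a* (0.65). The most opposite were *Tdp2* (-0.66), *Dbp* (-0.63), *Ss18* (-0.61), *6820402A03Rik* (-0.60) and *Cfdp1* (-0.60). From that end *Nr1d2* was at place 20, *Per2* at 186, *Per3* at 703 and *Cry1* at 1576. *Per1* (r = -0.05) was at 5322 and *Nr1d1* (0.10) at 8524 from that end, and *Clock* (0.27) was at 2193 from the other. Most libraries of a group share a lane, and depth differs among them.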

How the data were processed

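Libraries were made with a TruSeq Stranded kit from male and female mouse tissues. The authors aligned reads with STAR (version 2.5.3a in the submitters' processing notes) to GRCm38 with a Gencode annotation, and deposited raw read counts per gene for 62 libraries; the strand column kept is not given. No column was left unassigned.

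Counts were tested as deposited with edgeR (4.0.16, R 4.3.3; quasi-likelihood F-test, TMM scaling, filterByExpr), with Benjamini-Hochberg adjustment over all genes tested. Comparisons within a tissue came from 1 fit per tissue with a mean for each of its groups, except KO against WT over all groups. The tool and the threshold of 10% follow the authors' methods. Their further covariates for the genotype test (RNA quality, days from harvest to extraction, hidden factors) were not used here. KO against WT over all groups of a tissue came from a separate fit with diet and, in fat, sex as covariates. Male SAT and VAT were also fitted together, with diet and depot as covariates. These fits took 1 genotype difference as common to all groups. DESeq2 (1.42.0), limma-voom (limma 3.58.1) and the other alternatives are given in the closing section. CPM and log2 CPM used TMM sizes and, for logs, a prior count of 2; TPM used merged exon lengths. Relations within groups used 100000 permutations. Scripts were tested on simulated data.

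All 10 genes were named, with at most 5 other clock genes per comparison (smallest p among those called) and the 5 genes at each end of the *Arntl* ordering. The members and lists were chosen with earlier results of these data known. 1 of the other clock genes is not reported here.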

Additional observations from a re-analysis of the deposited data

Results flagged for a closer look

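Some libraries stood far from the others of their group of 4 (CPM, with the range of the other 3). There were 13 such values among 140 sets of a gene and a group, in 7 genes, where chance gives about 1 in 20 sets. In liver, *Arntl* was 0.674 in HFD KO 3 (1.95 to 1.99), the library with the highest ribosomal RNA share, and 3.37 in HFD WT 1 (1.40 to 1.60). *Nr1d2* was 46 in chow KO 4 (66.4 to 69.5) and 76.7 in chow WT 4 (65.2 to 66.1). *Per3* was 22.3 in HFD KO 3 (39.7 to 44.7), and *Dbp* was 4.42 in chow KO 4 (11.7 to 13.6), another library with over 30% ribosomal RNA. In SAT, HFD WT 1 was low in *Nr1d2* (68 against 109.8 to 116), *Per3* (78.7 against 111 to 119) and *Dbp* (9.74 against 30.2 to 37.2). *Clock* was 128 in female HFD KO 2 (172 to 182) and *Per1* was 23.6 in chow WT 2 (38.9 to 40.9). In VAT, *Per1* was 20.2 in chow KO 1 (27.4 to 28.8), a library with epididymis markers, and *Cry1* was 12.3 in chow KO 4 (8.15 to 8.42).

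Some diet differences were unlike each other between groups, by a test of the difference itself with an adjusted p under 0.1. Between genotypes in VAT this held for *Nr1d1* (1.13, log2). In VAT minus SAT it held for *Arntl* (0.695), *Npas2* (1.51), *Nr1d1* (-0.814), *Nr1d2* (-0.451, lost without any of 25 of 48 libraries), *Per2* (-1.19) and *Per3* (-1.66). In VAT minus liver it held for *Arntl* (1.91), *Clock* (0.504), *Npas2* (1.56), *Per1* (-1.23), *Per2* (-2.98) and *Per3* (-2.44), and in SAT minus liver for *Arntl* (1.22), *Clock* (0.767), *Per2* (-1.79), *Per3* (-0.778) and *Cry1* (-0.619, lost without any of 6 libraries). The *Nr1d1* difference between genotypes was lost without any of 18 of 23 libraries.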

How the results depend on the processing

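Depth limits liver *Npas2* and *Arntl* on HFD, which rest on few counts, and 4 libraries a group limit every genotype test. No paired analysis was possible because the labels carry no replicate numbers (those used here follow accession order) and do not link tissues to mice. Of 214 summary values under alternatives other than leaving out 1 library, 188 stayed close to the main value. Close meant a count of calls within a set factor of the main count, or a balance moved by less than the within-group SD. Single genes could still cross the threshold within such counts. Of 654 single-gene and relation values, 590 kept direction and side of the threshold. For HFD against chow, the median log2 fold change over all genes in SAT was -0.017 with TMM and -0.052 with DESeq2's scaling. It was -0.049 and -0.030 in VAT, and -0.003 and -0.006 in liver. The share of all genes called was taken for the main fits only. Counts of called clock genes under alternatives therefore stand without it. Unless a value shows it, the cause of a change was not tested.

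For KO against WT, DESeq2 called 2 members in male SAT and VAT together and 1 in VAT, and 1 was called in male fat without the libraries with epididymis markers. DESeq2 called 1 in the SAT interaction. In male chow SAT 1 was called with no low-count filter, 1 with the ribosomal RNA gene left out, 1 at 5% FDR, 1 without the other flow cell, and 0 with the lymphocyte covariate, where *Nr1d1* turned to -0.11. In male chow VAT 1 was called with no low-count filter, 1 with limma-voom, 1 at 5% FDR and 1 without the libraries over 30% ribosomal RNA, and *Cry1* turned to -0.040 with limma-voom. The VAT interaction had 0 called with no low-count filter, limma-voom, 5% FDR, without libraries over 30% ribosomal RNA, without those with epididymis markers or with the macrophage covariate, and 2 without the other flow cell.

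For HFD against chow in VAT, 0 were called with the macrophage covariate, under which *Nr1d1* turned to 0.13, *Per3* to 0.71 and *Cry1* to 0.10, and *Per3* was 0.021 without the libraries with epididymis markers. The macrophage covariate did not overlap between diets, or between the sexes on HFD. For females against males in VAT, 1 was called with that covariate and *Per3* turned to -0.31. Of the relations with *Arntl*, 4 passed without the HFD WT group of SAT. Written as the log2 ratio of *Dbp* to *Arntl*, the HFD minus chow difference was 3.88 in SAT, 2.68 in VAT and 5.15 in liver.

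Leaving out each library in turn gave 0 to 2 called in male SAT and VAT, 0 to 1 in SAT, 0 to 2 for females against males in SAT, 0 to 1 in the SAT interaction, 0 to 2 in the VAT interaction, 0 to 5 in male chow SAT, 1 to 3 in male chow VAT, 8 to 9 for diet in SAT, 5 to 7 in VAT and 7 to 8 in liver. In these fits *Nr1d1* in male chow SAT ran from -0.076 to 0.44, *Cry1* in male chow VAT from -0.15 to 0.066, *Dbp* in male chow VAT from -0.97 to 0.042, and *Cry1* for diet in liver from -0.14 to 0.067.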

Other observations

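Genes that respond within minutes to hours to other signals were set beside the clock genes by counts of the same tests. Of 12 immediate early genes, which include *Fos* and *Egr1* and rise with handling or growth signals, 7 were higher and 0 lower on HFD in SAT (median log2 fold change 0.64), where 59.7% of all genes were called, 5 higher and 1 lower in VAT (0.33; 47.4% of all genes), and 4 of 11 tested higher and 0 lower in liver (0.20; 40.7% of all genes). These counts were near the shares of all genes. Of 12 glucocorticoid-responsive genes, which include *Fkbp5* and *Tsc22d3*, 2 were higher and 2 lower in SAT (-0.06), 2 higher and 5 lower in VAT (-0.52), and 1 higher and 3 lower in liver (-0.58). The share called in this list was below that of all genes in SAT and liver and above it in VAT. Between genotypes in male chow SAT, 3 of the 12 glucocorticoid-responsive genes were higher in KO and 0 lower, and edgeR called 0 of 12 immediate early genes, against 31.3% of all genes. In male chow VAT edgeR called 0 of 12 in both lists (0.290% of all genes). The part of either signal in the clock gene values was not tested.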
